A study of Mus musculus with 11 samples.

Results

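The contractile genes described here are 9 genes of smooth muscle and myofibroblasts (Acta2, Tagln, Myl9, Tpm1, Tpm2, Cnn1, Cnn2, Actg2 and Myh11), taken by their symbols from the 31053 genes of the deposited Visium tables. All 9 were present, and all 9 passed the filter on low counts that left 14821 genes for testing. They were followed in 11 mouse liver sections over a time course of acute liver injury and set beside 11 collagen genes. The question was when and where the contractile genes come on relative to the collagen genes.

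The 0 h group held 3 sections labelled Uninjured (2, 3 and 4), and the injured groups, labelled POD, were 24 h with 2 sections (A, B), 36 h with 2 (A, B) and 48 h with 4 (A, B, C, D). The mice were young adult C57BL/6JCrl animals, male unless stated otherwise, and the injury was acetaminophen given into the peritoneum after a fast. The methods give 1 mouse for each time point of the spatial experiment, so sections of a time point may come from the same animal, the p-values below measure the spread between sections only, and mouse and time point cannot be told apart. Each Visium spot covers several cells and counts poly(A) RNA by unique molecular identifiers (UMIs), so fewer cells of a type and less RNA per cell cannot be told apart either.

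Smooth muscle cells of vessel walls and activated fibroblasts contract through the same machinery. Acta2 encodes smooth muscle alpha-actin, which forms the thin filaments together with the gamma-actin of Actg2; Tpm1 and Tpm2 encode tropomyosins that lie along them, Cnn1 and Cnn2 encode calponins, and Tagln encodes transgelin, an actin-bundling protein. Myl9 encodes the regulatory light chain of smooth muscle myosin and Myh11 its heavy chain. In the resting liver several of these genes, though not all, mark arteries and portal veins. After injury hepatic stellate cells switch on Acta2 and then lay down fibrillar collagen. Myh11, Cnn1 and Actg2 are commonly used to mark mature smooth muscle.

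Passing spots, with at least 800 genes and at most 20% mitochondrial UMIs, numbered from 1490 to 3466 a section, and their UMIs summed to between 31292663 and 67045372. The 6 matched hepatocyte markers summed to between 72897 and 114754 CPM (depth-normalised UMI counts, with library sizes adjusted by the trimmed mean of M-values, TMM) in every section. RNA also reached spots outside the tissue, where Acta2 lay at 0.86 to 1.41 CPM in the 0 h sections and at 20.8 to 64.0 in the injured ones, so a single UMI in a spot need not have come from the cells under it. Section 36 h A lay below 36 h B for all 9 members, and section 48 h A held a small patch of spots with very high smooth muscle RNA, which is described below.

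Acta2 rose most among the members with more than a handful of UMIs. It was measured at 1.94, 2.80 and 2.80 CPM in the 0 h sections, at 57.4 and 43.1 at 24 h, at 21.1 and 75.2 at 36 h, and at 49.1, 57.2, 68.7 and 68.9 at 48 h. The lowest injured section thus lay far above the highest uninjured one, and the rise was in place by 24 h. Against 0 h, the log2 fold change was 4.32 ± 0.45 at 24 h (standard error; edgeR quasi-likelihood test, Benjamini-Hochberg adjusted p = 9.8e-05), 4.26 ± 0.45 at 36 h (adjusted p = 0.00043) and 4.60 ± 0.43 at 48 h (adjusted p = 5.1e-05).

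Tagln, the transgelin gene, followed with a smaller change. Its level was 7.62, 9.42 and 11.9 CPM at 0 h, 36.5 and 40.8 at 24 h, 13.1 and 44.9 at 36 h, and 39.8, 42.5, 61.9 and 47.2 at 48 h. All injured sections lay above the 0 h sections, although 36 h A did so narrowly. The log2 fold change was 2.01 ± 0.41 at 24 h (edgeR adjusted p = 0.0033), 1.59 ± 0.41 at 36 h (0.017) and 2.31 ± 0.37 at 48 h (0.0008). Without 36 h B the 36 h value dropped to 0.45 (adjusted p = 0.28).

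The tropomyosin genes rose in every injured section. Tpm1 was at 26.7, 25.6 and 28.7 CPM in uninjured sections, at 96.7 and 104 at 24 h, at 61.8 and 91.8 at 36 h, and at 101, 100.3, 106 and 87.4 at 48 h, a log2 fold change of 1.90 ± 0.15, 1.51 ± 0.15 and 1.87 ± 0.14 at the 3 times. Tpm2 was at 6.93, 6.22 and 6.95 CPM at 0 h, then at 19.3 and 17.1 (24 h), 13.4 and 27.9 (36 h) and 23.8, 17.8, 25.9 and 22.0 at 48 h, with log2 fold changes of 1.44 ± 0.26, 1.62 ± 0.26 and 1.74 ± 0.23. For both genes the injured and uninjured sections did not overlap, and edgeR's adjusted p was 0.0019 or lower at each time.

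Of the myosin genes, Myl9 had smaller fold changes than Tpm1 and Tpm2 and Myh11 larger ones, a comparison of values that was not tested. Myl9 was at 6.71, 10.0 and 13.8 CPM at 0 h, then at 33.2 and 20.3 (24 h), 16.5 and 23.6 (36 h) and 24.1, 20.9, 20.4 and 29.5 at 48 h. Its log2 fold change was 1.40 ± 0.30, 0.98 ± 0.30 and 1.23 ± 0.26 (edgeR adjusted p = 0.0044, 0.035 and 0.0041). Myh11 was a low-count gene at 0.86, 0.99 and 0.90 CPM at 0 h, then at 4.97 and 2.07 (24 h), 2.84 and 4.14 (36 h) and 5.66, 2.92, 3.73 and 3.14 at 48 h. Its log2 fold change was close to 2 at each time (1.95 ± 0.39, 1.92 ± 0.39 and 2.07 ± 0.34, edgeR adjusted p = 0.0026, 0.0055 and 0.00083). Without 24 h A the 24 h values of Myl9 and Myh11 were 1.003 and 1.17 (adjusted p = 0.054 and 0.05).

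Cnn2, the calponin that is also made outside smooth muscle, rose least. It was measured at 7.70, 10.4 and 10.9 CPM at 0 h, then at 15.4 and 15.5 (24 h), 9.24 and 17.5 (36 h) and 12.8, 14.1, 16.9 and 17.7 at 48 h, and 36 h A fell inside the 0 h range. The log2 fold change was 0.67 ± 0.25 at 24 h (edgeR adjusted p = 0.049) and 0.67 ± 0.21 at 48 h (0.025). The 36 h value, 0.47 ± 0.25, did not pass (0.18). The 24 h call was lost when any 1 of the 0 h, 24 h or 48 h sections was left out (adjusted p between 0.0504 and 0.171).

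Cnn1 and Actg2 had few UMIs outside 1 section. Cnn1 had 0, 1 and 0 UMIs at 0 h, 8 and 1 at 24 h, 1 and 3 at 36 h, and 282, 3, 14 and 19 at 48 h. Actg2 had 11, 5 and 9 UMIs at 0 h, 65 and 17 at 24 h, 8 and 19 at 36 h, and 475, 52, 82 and 64 at 48 h. Section 48 h A alone held most of the 48 h UMIs of both genes. At 48 h both were called higher (log2 fold change of 6.88 ± 2.12 for Cnn1 and 3.71 ± 0.93 for Actg2, edgeR adjusted p = 0.024 and 0.009); the 0 h sections held only 1 UMI of Cnn1 and 25 of Actg2, so the ratios of UMIs are given too. The Cnn1 call was lost without any 1 of the 0 h sections (adjusted p between 0.0698 and 0.0863), and without 48 h A Actg2 was also called at 24 h (log2 fold change of 2.37, edgeR adjusted p = 0.0062). Cnn1 over the 4 sections at 48 h stood at 167 times its 0 h level, with a 95% exact interval for counting error of 29.7 to 6610, and over the 3 sections without 48 h A at 25.8 times (4.34 to 1047). The same ratio for Actg2 was 14.1 (9.48 to 22.0) with 48 h A and 5.68 (3.73 to 8.99) without it. At 24 h the ratio to 0 h was 5.70 (3.60 to 9.31) for Actg2 and 15.6 (2.17 to 685) for Cnn1, and at 36 h it was 2.10 (1.17 to 3.77) and 7.77 (0.77 to 383).

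**Figure D1:**
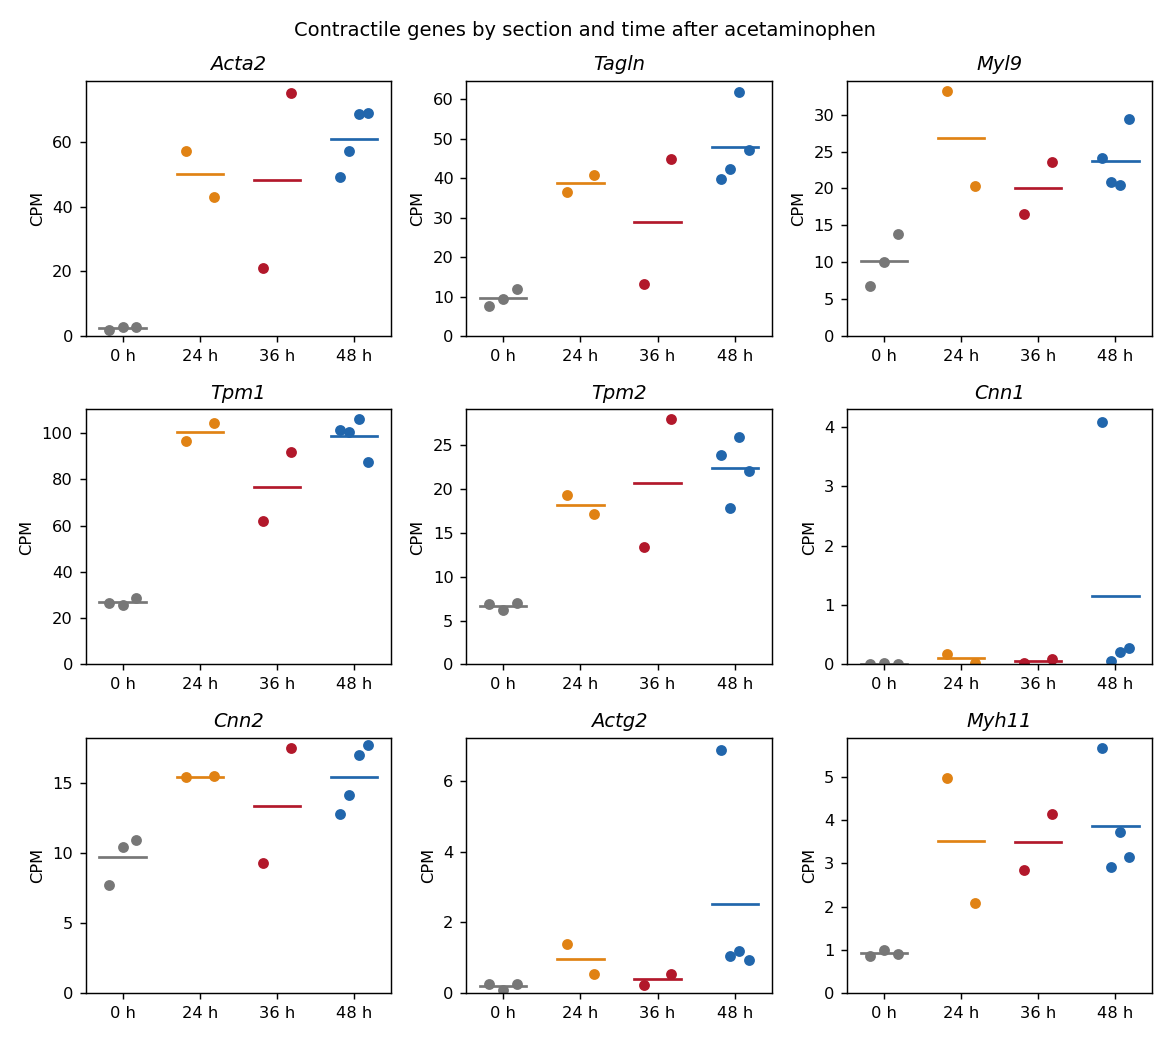
CPM (y axis, linear, from 0) of each of the 9 contractile genes by time point (x axis); each dot is 1 section and the bar is the mean of the 3, 2, 2 and 4 sections. Acta2, Tpm1 and Tpm2 stand above 0 h in every injured section, 36 h A is the lower of the 36 h pair throughout, and in Cnn1 and Actg2 the single high dot is 48 h A.

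Counted over the list, 7 of the 9 members were higher at 24 h than at 0 h, where 23.1% of all genes tested were. At 36 h 6 members were called higher, against 16.8% of all genes, and at 48 h all 9 were, against 23.3%. The median log2 fold change of the 9 was 1.95 at 24 h, 1.59 at 36 h and 2.07 at 48 h, beside medians over all genes of 0.05, 0.05 and 0.01. Between injured times no member passed the test: 0 of 9 from 24 h to 48 h, where 34.1% of all genes were called in either direction, 0 of 9 from 24 h to 36 h (15.6%) and 0 of 9 from 36 h to 48 h (3.05%). For 48 h against 24 h, Acta2 changed by 0.28 ± 0.39, Tpm1 by -0.03 ± 0.15 and Myh11 by 0.12 ± 0.35 on the log2 scale (edgeR adjusted p = 0.61, 0.91 and 0.81), and none of the 9 had an unadjusted p under 0.05. DESeq2 also called 0 members in the contrasts of 24 h with either later time, and 1 between 36 h and 48 h; at an unadjusted p under 0.05 edgeR listed 1 member from 24 h to 36 h (Tpm1) and 2 from there to 48 h (Tpm1 and Actg2). Without 36 h B the count was 3 (24 h to 36 h) and 4 (36 h to 48 h), and without 36 h A it was 1 and 0. Scaling by total counts in place of TMM put the median of all genes at 0.37, 0.49 and 0.54 at 24 h, 36 h and 48 h against 0 h, and the member counts were then 7, 7 and 9. Without 24 h A 4 members were called at 24 h.

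Promoter windows are shown because most members rose together, and because many smooth muscle genes are known to hold a CArG box, the site bound by serum response factor. GGAATG is a form of the site bound by TEAD factors. RefSeq promoter windows of 300 bases (250 before to 50 after the start, build GRCm38.p6, gene strand) were found for 6 of the 9 members: Acta2, Myl9, Tpm1, Tpm2, Cnn1 and Cnn2. Capitals mark the CArG box in Myl9 and Cnn2 and the letters GGAATG in Acta2.
Acta2, chr19:34255324-34255623, minus strand: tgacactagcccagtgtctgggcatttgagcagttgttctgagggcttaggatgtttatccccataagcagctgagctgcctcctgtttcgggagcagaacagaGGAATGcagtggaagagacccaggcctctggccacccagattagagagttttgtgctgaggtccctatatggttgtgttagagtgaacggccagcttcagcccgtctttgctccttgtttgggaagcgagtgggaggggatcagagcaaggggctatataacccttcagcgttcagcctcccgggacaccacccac
Myl9, chr2:156775214-156775513, plus strand: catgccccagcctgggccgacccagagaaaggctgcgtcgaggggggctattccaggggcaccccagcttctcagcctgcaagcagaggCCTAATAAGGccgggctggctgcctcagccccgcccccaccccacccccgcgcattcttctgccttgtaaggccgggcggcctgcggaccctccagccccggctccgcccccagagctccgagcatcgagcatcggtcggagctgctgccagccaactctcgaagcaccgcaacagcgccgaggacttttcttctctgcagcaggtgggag
Cnn2, chr10:79988350-79988649, plus strand: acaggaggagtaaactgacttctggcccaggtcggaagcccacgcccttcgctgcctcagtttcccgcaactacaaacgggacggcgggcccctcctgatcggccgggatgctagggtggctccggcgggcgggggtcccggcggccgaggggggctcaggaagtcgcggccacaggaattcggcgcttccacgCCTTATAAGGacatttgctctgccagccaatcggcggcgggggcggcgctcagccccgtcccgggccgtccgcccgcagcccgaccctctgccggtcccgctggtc

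An exact CArG box began 161 bases before the start in Myl9 and 56 bases before it in Cnn2. It was held by 2 of the 6 members' windows and by 1.63% of the 32851 windows of that length. Forms of the box with a changed base were not counted, and the Acta2 window holds such forms, ccctatatgg and ccttgtttgg. The letters GGAATG, read on both strands, were held by Acta2 and Tpm1 (146 and 56 bases before the start) and by 14.7% of all windows. No member's window held both GGAATG and an exact CArG box. These are matches of letters only, and a window without them says nothing about the factor. In GENCODE M21 on GRCm38 the Acta2 gene spans chr19:34241090-34255590 on the minus strand and Myh11 chr16:14194535-14291372 on the minus strand. Of the 32-base words in the last 500 bases of the longest coding transcript, where 3' counting reads fall, none was shared with another gene for 8 members, and 1.49% were for Actg2, so the actin genes Acta2 and Actg2 shared no such word with each other.

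Most collagens rose after 24 h. Of the 11 collagen genes 3 were called higher at 24 h (Col5a2 of fibrillar type V collagen, and Col4a1 and Col4a2 of basement membrane collagen). At 36 h 8 were, and at 48 h 10, the exception being Col5a3. Of all genes tested 23.1%, 16.8% and 23.3% were higher at these times, so the 24 h count was near that share. The median log2 fold change of the 11 collagens against 0 h was 0.36, 1.66 and 2.88. Between 24 h and 48 h 8 of 11 collagens rose, with a median of 3.31, where 34.1% of all genes were called in either direction. The contractile counts for the same contrast are given above. Fitted on the 0 h and 24 h sections alone, 6 collagens were called at 24 h, and without 36 h B 3 were called at 36 h.

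Col1a1, the main fibrillar collagen chain, was at 3.21, 2.19 and 2.54 CPM at 0 h, then at 6.88 and 5.20 (24 h), 20.5 and 80.4 (36 h) and 94.3, 129.6, 291 and 261 at 48 h. Its log2 fold change was 1.20 ± 0.62 at 24 h (edgeR adjusted p = 0.15), 4.25 ± 0.63 at 36 h (0.0017) and 6.20 ± 0.64 at 48 h (0.0001). Col3a1, the chain of type III collagen, was at 21.2, 23.6 and 26.7 CPM at 0 h and 21.4 and 12.9 by 24 h, the first within and the second below the 0 h range, and then at 45.6 and 113 at 36 h and 190, 267, 450 and 476 at 48 h. Col6a1 and Col6a2 were also lower at 24 h than at 0 h in both sections, without passing the test (log2 fold change of -1.65 ± 0.62 and -0.99 ± 0.57, edgeR adjusted p = 0.056 and 0.19).

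The basement membrane pair had reached its 48 h level by 24 h. Col4a1 was at 32.2, 34.1 and 42.9 CPM at 0 h, then at 124 and 129.95 (24 h), 58.7 and 142 (36 h) and 104, 98.0, 160 and 142 at 48 h. Its log2 fold change was 1.80 ± 0.32 at 24 h and 1.79 ± 0.29 at 48 h, and 48 h differed from 24 h by -0.01 ± 0.31 (edgeR adjusted p = 0.99).

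**Figure D2:**
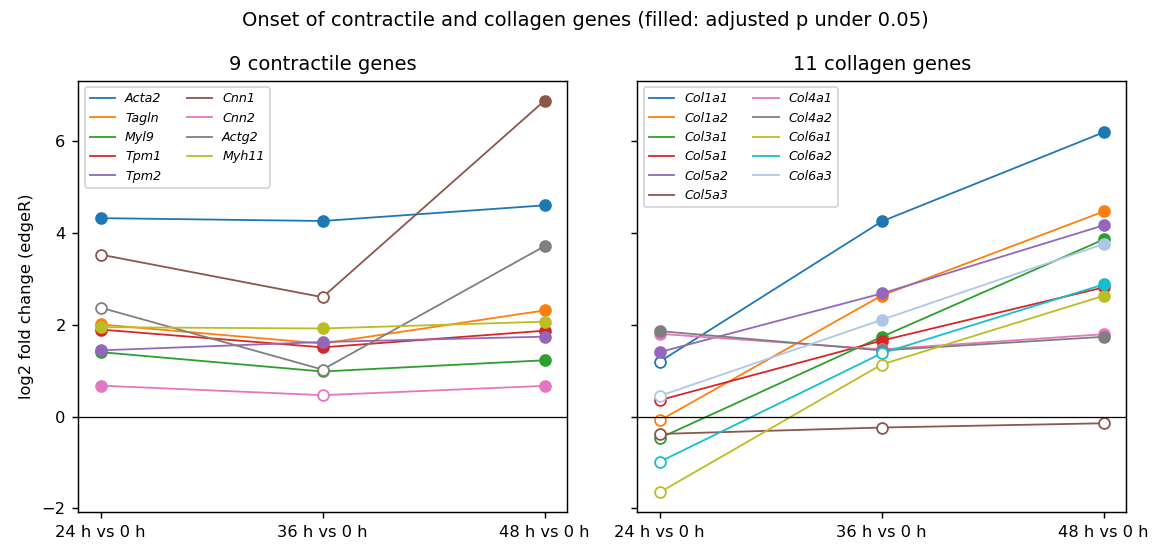
Log2 fold change against 0 h (y axis) at 24 h, 36 h and 48 h (x axis) for the 9 contractile genes (left) and 11 collagen genes (right), 1 line per gene; filled dots have an edgeR adjusted p under 0.05. The contractile lines are already raised at 24 h and several, such as Tagln, Tpm1 and Myl9, dip at 36 h; Cnn1 and Actg2 are highest at 48 h, with most of those UMIs from 48 h A, while most collagen lines climb and those of Col4a1 and Col4a2 do not.

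The ratio of a member to a collagen within a section (0.5 added to both UMI sums) needs no scaling between sections. Acta2 UMIs per Col1a1 UMI were 0.60, 1.28 and 1.10 at 0 h, 8.33 and 8.27 at 24 h, 1.03 and 0.94 at 36 h, and 0.52, 0.44, 0.24 and 0.26 at 48 h. Both 24 h sections thus stood apart from all others, and the 48 h sections lay below the 0 h sections. On the log2 scale the mean ratio was 3.05 ± 0.01 (SD, n = 2) at 24 h, -0.08 ± 0.57 (n = 3) at 0 h and -1.53 ± 0.56 (n = 4) at 48 h. The 24 h minus 0 h difference was 3.13 (exact two-sided permutation p = 0.2, the smallest that 2 against 3 sections allow) and the 48 h minus 24 h difference was -4.58 (exact permutation p = 0.133, the smallest for 4 against 2), so neither could reach 0.05 in this design.

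Acta2 UMIs per Col3a1 UMI were 0.092, 0.119 and 0.105 at 0 h, 2.68 and 3.33 at 24 h, 0.46 and 0.66 at 36 h, and 0.26, 0.21, 0.15 and 0.14 at 48 h. All 8 injured sections lay above the 3 uninjured ones, a log2 difference of 2.23 (exact permutation p = 0.012, adjusted p = 0.109 over the 9 ratio comparisons made). For Tagln to Col1a1 the log2 difference was 0.83 for 24 h minus 0 h and -4.58 for 48 h minus 24 h, again at the smallest p allowed. The injured minus 0 h difference did not have a common direction over the ratios. It was -2.31 for Tagln to Col1a1 (exact permutation p = 0.12, adjusted p = 0.225) and 0.07 for Acta2 to Col1a1 (exact permutation p = 0.99).

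The contractile genes were not spread evenly across the uninjured liver. At 0 h, spots were ranked by central minus portal zonation genes, none of them a member, and the outer 20% of spots at each end were compared within each section. Acta2 was at 0.39, 1.39 and 0.98 CPM (here and for all spot classes below, UMIs relative to the total of the class) in central spots and at 3.48, 4.68 and 4.79 in portal spots, so that every portal value exceeded every central one. The log2 difference, central minus portal, was -2.24 ± 0.24 for Acta2 (edgeR adjusted p = 6.3e-11), -1.34 ± 0.13 for Tagln, -1.61 ± 0.41 for Myh11 (0.0019) and -0.73 ± 0.12 for Myl9 (4.5e-06). These 4 members were lower in central spots, as were 12.4% of the 11728 genes tested.

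Tpm2 went the other way. It was at 9.85, 8.41 and 7.33 CPM in central spots and at 4.31, 3.54 and 5.73 in portal spots of the 0 h sections, and its log2 difference was 0.89 ± 0.15 (edgeR adjusted p = 4.1e-06). It was the 1 member higher in central spots, as were 11.6% of all genes. Tpm1 and Cnn2 did not pass the test (-0.12 ± 0.08 and -0.15 ± 0.13), and Cnn1 and Actg2 had too few UMIs to be tested.

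Spots with bile duct markers were also high at 0 h. Bile ducts run beside arteries and portal veins, and a spot was counted as biliary with 2 or more UMIs of Epcam, Krt7, Krt19, Cldn7 and Cftr, which gave 29, 46 and 36 such spots at 0 h. Acta2 stood at 18.4, 23.6 and 33.5 CPM in them, against 1.22, 1.87 and 1.64 in all other spots. Tagln stood at 34.9, 50.4 and 52.8 against 5.50, 6.84 and 8.55. In each 0 h section the biliary spots were thus higher for both genes.

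After injury the order differed between sections. Acta2 stood at 55.3 and 63.0 CPM in the biliary spots of 24 h A and B against 58.0 and 42.2 elsewhere, at 17.96 and 90.7 against 23.3 and 78.6 at 36 h, and at 59.3, 83.1 and 68.5 against 65.2, 80.0 and 78.6 in 48 h B, C and D. Section 48 h A was again apart, with 646 against 52.8. Biliary spots were thus higher in 4 injured sections (24 h B, 36 h B, 48 h A and 48 h C) and lower in the other 4. The 24 h B value rests on 13 UMIs and the 36 h A value on 5. The fit over all sections shares its spread with 48 h A and called only Cnn2 at 0 h (log2 difference of 0.81 ± 0.25, edgeR adjusted p = 0.014), where 3.89% of genes were higher, and only Cnn1 at 48 h (4.54 ± 1.13, 0.031), where 2.6% were. Without 48 h A, the fit called 7 of the 9 members higher at 0 h, all but Cnn1 and Actg2, where 4.33% of genes were, with a log2 difference of 3.74 ± 0.24 for Acta2 and 2.54 ± 0.17 for Tagln. In that fit Acta2 was at -0.02 ± 0.11 at 48 h (edgeR adjusted p = 0.99), while Tagln and Myl9 were still higher (0.53 ± 0.11 and 0.47 ± 0.15, adjusted p = 0.0001 and 0.03). Section 24 h B had too few biliary spots (7) to enter either fit.

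After injury Acta2 and Tagln were higher away from portal signal. The 20% of spots with the least portal signal (portal-poor) were compared with the 20% with the most (portal-rich) in every section, a comparison added after the data were seen. Acta2 was at 0.35, 1.82 and 0.92 CPM in portal-poor spots at 0 h against 3.32, 3.22 and 3.54 in portal-rich ones. At 24 h it was at 85.3 and 75.8 against 36.6 and 20.6, at 36 h at 48.8 and 151 against 11.1 and 36.9, and at 48 h at 143, 180, 195 and 182 against 18.9, 19.5, 28.3 and 31.3. Portal-poor spots were thus lower in all 3 uninjured sections and higher in all 8 injured ones. Col1a1 had a like order in the central and portal spots of 48 h A to D, ranked by zonation genes. It was at 137, 189, 460 and 377 CPM in central spots against 38.9, 45.2, 131 and 115 in portal ones. Col5a3 was lower in central spots of 48 h A and D. These collagen values were not tested.

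The log2 difference of Acta2, portal-poor minus portal-rich, was -1.68 ± 0.39 at 0 h (edgeR adjusted p = 0.014), 1.19 ± 0.18 at 24 h (0.0002), 1.74 ± 0.19 at 36 h (1.3e-05) and 2.37 ± 0.11 at 48 h (2.7e-10). The change of this difference from 0 h to 48 h was 4.04 ± 0.39 (1.4e-06), and from 24 h to 48 h 1.18 ± 0.21 (0.0013). Tagln went from -0.85 ± 0.35 at 0 h to 0.99 ± 0.30, 1.14 ± 0.34 and 1.65 ± 0.19, with a 0 h to 48 h change of 2.50 ± 0.39 (edgeR adjusted p = 0.00088). Tpm2 was higher in portal-poor spots at all 4 times (0.90 ± 0.19, 0.47 ± 0.17, 1.18 ± 0.18 and 1.87 ± 0.11). Single sections decided some of these calls: that of Acta2 at 0 h was lost without 0 h 4 (-1.56, edgeR adjusted p = 0.084), and that of Tpm2 at 0 h without 0 h 3 (0.67, 0.099). The Tpm2 call at 24 h was lost without 24 h B (0.22, 0.59), 0 h 2 or 48 h D (both 0.47, 0.065 and 0.054). Tagln lost its 24 h and 36 h calls without 0 h 4, 36 h A, 36 h B, 48 h D or either 24 h section (adjusted p between 0.0521 and 0.312 at 24 h, and between 0.0505 and 0.251 at 36 h).

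Myh11 was lower in portal-poor than in portal-rich spots of each section up to 36 h, although only the 36 h difference passed the test. At 0 h it was at 0.35, 0.45 and 0.69 CPM in portal-poor spots against 0.98, 0.88 and 1.03 in portal-rich ones. It was at 4.08 and 1.40 CPM in portal-poor spots against 6.41 and 2.60 in portal-rich ones at 24 h, and at 1.82 and 4.25 against 5.39 and 5.02 at 36 h. The log2 difference was -0.99 ± 0.38 at 24 h (edgeR adjusted p = 0.059) and -1.10 ± 0.39 at 36 h (0.042), opposite in sign to that of Acta2 in the same sections. At 48 h it was 0.44 ± 0.20 (0.057), with portal-poor spots at 13.3, 6.02, 5.52 and 5.14 against 4.13, 3.08, 4.95 and 3.39.

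**Figure D3:**
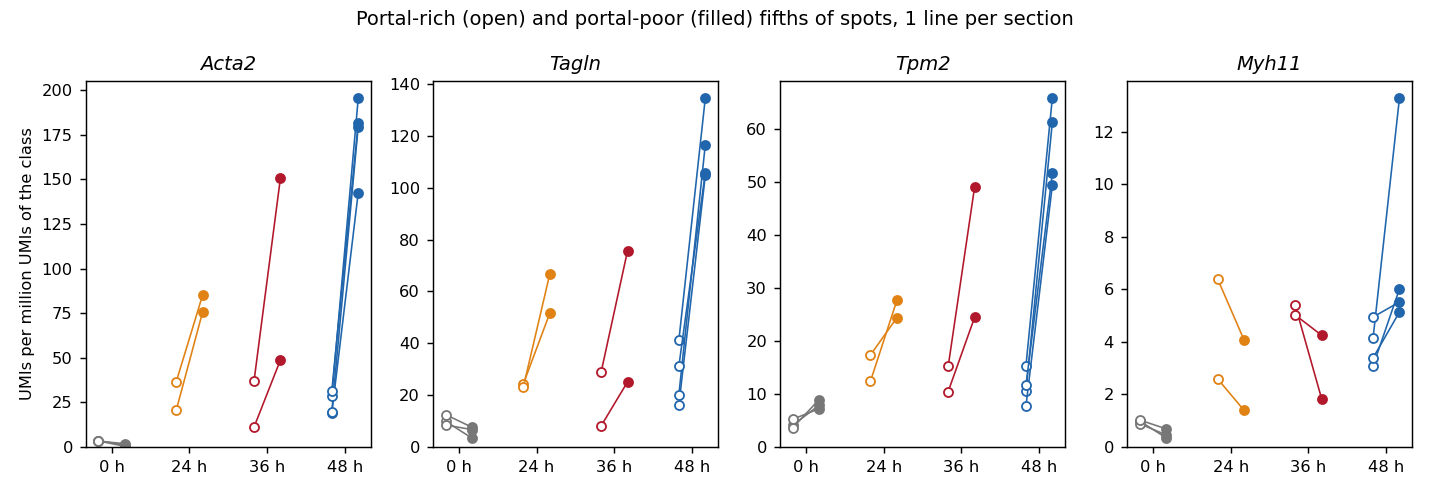
CPM of the spot class (y axis, linear, from 0) in portal-rich (open) and portal-poor (filled) spots, with a line joining the classes of a section, by time point (x axis), for Acta2, Tagln, Tpm2 and Myh11. The lines of Acta2 and Tagln fall at 0 h and climb in all 8 injured sections, whereas those of Myh11 fall up to 36 h.

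Over the list, 1 member was higher in portal-poor spots at 0 h (Tpm2), as were 5.31% of the 13493 genes tested, and 1 was lower (Acta2), as were 4.9%. At 24 h 5 members were higher (13.0% of genes) and 0 lower (14.4%), and at 36 h 5 were higher (13.8%) and 1, Myh11, lower (14.8%). At 48 h 8 were higher (35.4% of genes), all but Myh11. The difference grew from 0 h to 48 h for 8 members, all but Cnn1, where it did for 21.1% of genes. Leaving out each section gave 6 to 8 members for this change. The call of 8 members at 48 h became 7 without 48 h A, and the 5 at 24 h became 1 without 24 h B. Portal-poor spots held less hepatocyte signal than the remaining spots in every injured section. Their mean hepatocyte score was 3.61 and 3.58 against 3.67 and 3.69 in 24 h A and B. It was 3.70 and 3.78 against 3.75 and 3.88 in 36 h A and B, and 3.36 to 3.58 against 3.71 to 3.74 at 48 h. At 0 h portal-poor spots held more (3.73 to 3.76 against 3.67 to 3.71). The part of hepatocyte loss in the values of the members was not tested.

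Around spots low in hepatocyte signal, Acta2 fell off within 1 to 2 grid steps. Hepatocyte-low spots were those under the 1st percentile of the hepatocyte score of uninjured spots, and 48 h A, B, C and D held 98, 30, 179 and 50 of them. The 0 h sections held 18, 36 and 19, and 24 h A and B and 36 h A and B held 24, 7, 13 and 6. No 24 h or 36 h section held more than 0 h section 3, so at those times such spots need not mark injury. By count 48 h B also held fewer, among 1490 passing spots against 2690. In the 4 sections at 48 h Acta2 was at 307, 383, 304 and 331 CPM in hepatocyte-low spots, at 104, 128, 105 and 130 in their neighbours 1 step away, at 47.3, 52.2, 45.8 and 60.2 at 2 steps, and at 36.3, 50.5, 50.7 and 68.4 at 3 steps or more. Every section showed the same order over the first 3 classes, and from 2 steps on the values no longer differed in a common direction.

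Against the spots 3 or more steps away, hepatocyte-low spots at 48 h were higher for all 9 members, as they were for 30.8% of all genes. The log2 difference was 2.27 ± 0.08 for Acta2, 1.75 ± 0.11 for Tagln, 1.91 ± 0.10 for Tpm2, 1.74 ± 0.10 for Myl9, 1.70 ± 0.19 for Myh11, 1.45 ± 0.11 for Cnn2 and 0.93 ± 0.08 for Tpm1. For Col1a1 it was 2.17 ± 0.07. All are relative to the captured UMIs of a class after TMM scaling, so they can differ from the ratios of the CPM printed above. The same holds for the log2 differences of the other spot classes. When Cyp2e1 was left out of the hepatocyte list, 25, 2, 44 and 3 spots of the 48 h sections were hepatocyte-low and 8 members were called. With the full list, 24 h A alone of the 24 h and 36 h sections had the 20 hepatocyte-low spots needed (24). There Acta2 was at 125 CPM against 57.8 far away, which with 1 section is given without a test. In 24 h B, 36 h A and 36 h B, with fewer such spots, it was at 180, 87.3 and 286 against 41.8, 22.3 and 77.1.

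With a looser limit at the 5th percentile all 8 injured sections could be used. The class then held 123 and 63 spots at 24 h and 48 and 36 at 36 h, against 88, 163 and 112 at 0 h. The log2 difference of Acta2 was then 1.47 ± 0.13 at 24 h, 1.52 ± 0.15 at 36 h and 2.16 ± 0.08 at 48 h, called at each time. That of Myh11 was -0.59 ± 0.47 at 24 h, -0.15 ± 0.62 at 36 h and 1.18 ± 0.17 at 48 h, and its change from 24 h to 48 h was 1.77 ± 0.46 (edgeR adjusted p = 0.0047).

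**Figure D4:**
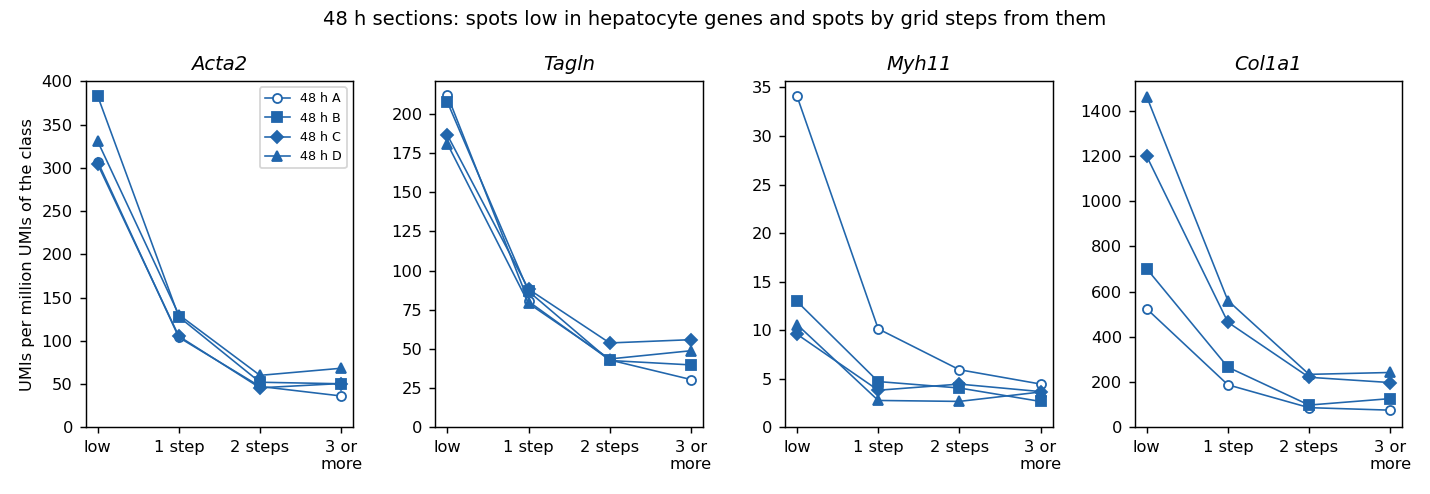
CPM of the spot class (y axis, linear, from 0) in the 48 h sections for hepatocyte-low spots and for spots 1, 2 and 3 or more grid steps from them (x axis), 1 line and symbol per section, open for 48 h A. Acta2 falls from 304 to 383 in hepatocyte-low spots to 45.8 to 60.2 at 2 steps, and Col1a1 falls alongside; in Myh11 the section 48 h A starts highest.

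The share of spots with at least 1 UMI rose in step with the levels. With every spot thinned to 5000 UMIs, an Acta2 UMI was found in 0.73%, 1.24% and 1.11% of spots at 0 h, in 22.3% and 17.5% at 24 h, in 10.4% and 28.5% at 36 h, and in 17.6%, 19.6%, 27.0% and 26.7% at 48 h. Without thinning the shares were 3.39% to 4.72% at 0 h and 24.0% to 63.2% after injury. Myh11 UMIs stayed rare, in 0.41% to 0.64% of thinned spots at 0 h and 0.99% to 2.45% after injury. Col1a1 UMIs were found in 0.83% to 1.26% at 0 h, 2.72% and 3.30% at 24 h, and 28.6% to 59.9% at 48 h, so that Acta2 was in more spots than Col1a1 at 24 h and in fewer at 48 h.

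The correlation of Acta2 with Col1a1 across spots was highest at 48 h. Across the thinned spots of a section, the Pearson correlation of their log2 counts lay between -0.01 and 0.11 at 0 h, between -0.01 and 0.07 at 24 h, at 0.17 and 0.24 at 36 h, and between 0.37 and 0.49 at 48 h. That of Acta2 and Tagln lay between 0.08 and 0.13 at 0 h, at 0.16 and 0.19 at 24 h, and between 0.27 and 0.39 at 48 h. Acta2 and Myh11 stayed between -0.01 and 0.01 at 24 h and 36 h. These correlations describe 1489 to 3343 spots of 1 section that share a library, and sparse counts pull them towards 0.

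The high Cnn1, Actg2 and Myh11 counts of 48 h A came from 1 place. Spots with 5 or more UMIs of these 3 genes together numbered 20 in 48 h A, 17 of them touching, and 2 in all other sections, where the highest spot held 6 against 84 in 48 h A. The rectangle of array rows and columns around the 20 spots, widened by 1 step, held 78 spots at an edge of the tissue, 43 of them with fewer than 6 neighbours, and 1.35% of the UMIs of the section. It held 203 of its 282 Cnn1 UMIs, 277 of 475 Actg2 UMIs and 167 of 391 Myh11 UMIs, but only 15.3% of its Acta2 UMIs, 4.12% of Tpm1 and 2.69% of Col1a1. The patch was drawn from these counts after they were seen, so they are a description without a test.

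**Figure D5:**
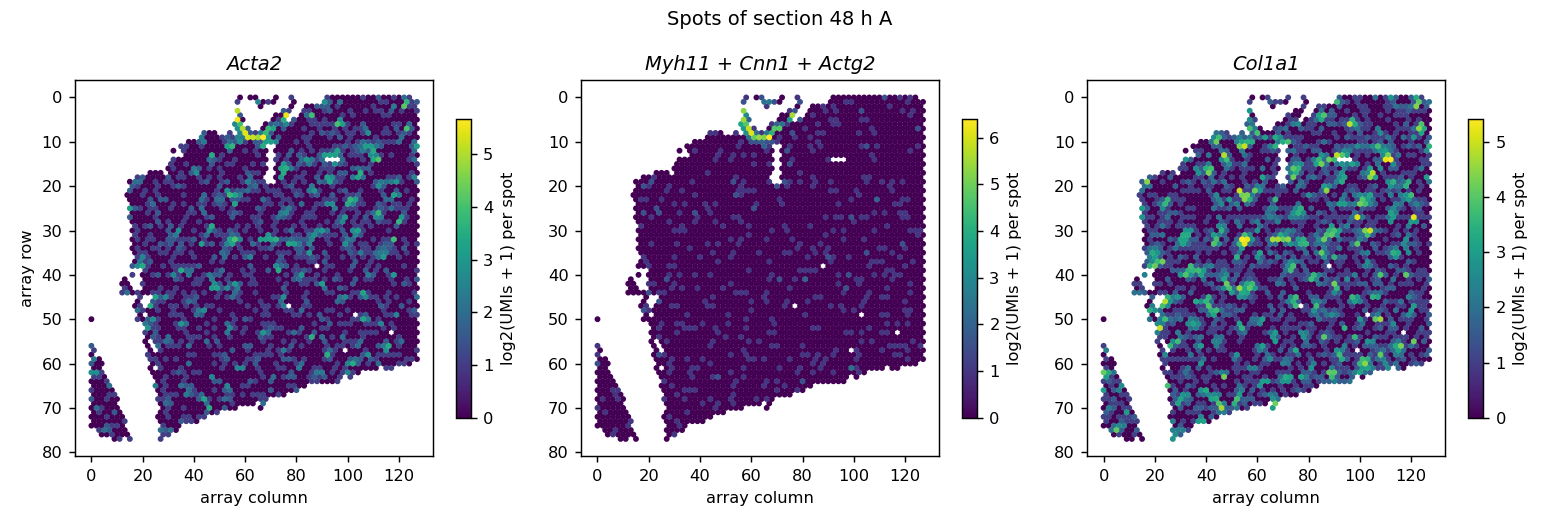
Position of the 3466 passing spots of 48 h A on the array (x axis, array column; y axis, array row), coloured by log2(UMIs + 1) of Acta2, of Myh11, Cnn1 and Actg2 summed, and of Col1a1. The smooth muscle genes fill 1 arc of spots at the upper edge, whereas Acta2 and Col1a1 also form many small foci over the whole section.

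The patch was also rich in other RNA, named here after the values were seen. Dmbt1 stood 235 times and Cfd, the adipsin gene, 180 times as high in its UMIs as in the rest of the section, and Des, the muscle intermediate filament gene, 25.5 times. Of the 29 biliary-marker spots of the section 16 lay in it, and the summed bile duct markers stood at 186 CPM against 3.60 elsewhere. Leaving the patch out, the log2 fold changes at 48 h against 0 h were 4.56 for Acta2, 1.83 for Myh11, 2.99 for Actg2 and 5.46 for Cnn1, and all 9 members were called. When all spots with any UMI of Myh11, Cnn1 or Actg2 were left out of every section, the log2 fold change of Acta2 was 4.44 at 24 h and 4.57 at 48 h (edgeR adjusted p = 1e-04 and 6.4e-05).

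Of 36 listed genes of contraction and its regulation, 33 were tested. At 24 h, 36 h and 48 h 17, 13 and 17 were higher, where 23.1%, 16.8% and 23.3% of all genes tested were. Lower at these times were 2, 1 and 3, for which no share over all genes was taken. Among those called, the largest changes at 48 h were in Kcnmb1, the beta subunit of the calcium-activated potassium channel of smooth muscle (log2 fold change of 2.59 ± 0.68, edgeR adjusted p = 0.010, from 11 UMIs in all at 0 h), Flna, an actin cross-linker (1.997 ± 0.222, 0.0001), Pdlim3, a Z-line protein (1.99 ± 0.57, 0.016), and Csrp1, a LIM protein of smooth muscle (1.48 ± 0.25, 0.00098). Kcnmb1, Flna and Csrp1 were already up at 24 h (3.07 ± 0.75, 2.04 ± 0.25 and 1.68 ± 0.28), whereas Pdlim3 was not (0.06 ± 0.74). Those lower at 48 h, named after their values were seen, included Hspb6 (log2 fold change of -0.96 ± 0.14) and Srf, the serum response factor gene (-0.38 ± 0.11). Myocd, the smooth muscle coactivator gene, had at most 2 UMIs in a section and was not tested.

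Among genes of at least 10 CPM on average, those whose log2 CPM ran most closely with Acta2 over the 11 sections were Tagln2 (Pearson r = 0.988), Snhg18 (0.987), Actn1 (0.983), Gnb1 (0.978) and Tmsb10 (0.978), out of 7087 compared. For Myh11 they were Ptgr1 (0.950), Ctps2 (0.939), Ifi27l2b (0.913), Rabl6 (0.909) and Gsta1 (0.909). The 11 points share time point and section, so these are descriptions.

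Markers of other cells were counted over the same sections. Of all genes tested, 23.1% were higher at 24 h, 16.8% at 36 h and 23.3% at 48 h against 0 h. Rises of 1 or 2 markers in a list are therefore not read as a result. No share of genes lower was taken, so the falls counted here have no background beside them and are not read as a result either. Of 9 markers of resting stellate cells, 5 fell and 2 rose at 24 h, and 3 rose and 3 fell at 48 h. Their summed level was 431 to 542 CPM at 0 h, 200 and 231 at 24 h, and 305 to 391 at 48 h. Ecm1 alone made 246 to 333 CPM of the 0 h sum, so the sum does not stand for the whole list. Ecm1, Colec11 and Vipr1 lay below the 0 h range in every injured section, and Des and Pdgfrb above it. Lrat, Reln, Hgf and Rgs5 overlapped it. Of 7 portal fibroblast markers 1 rose and 1 fell at 24 h, and 3 rose at 48 h, with a sum of 9.86 to 11.5 CPM at 0 h, 8.61 and 10.3 at 24 h and 15.0 to 27.3 at 48 h. Mesothelial markers (0 of 4 called at any time) were highest in 36 h B and 48 h C, at 20.9 and 13.6 CPM against 0.83 to 3.94 elsewhere. Of 8 skeletal muscle markers 2 were tested, with 1 called higher at 36 h and at 48 h, the sum at 1.48 to 3.14 CPM, and Myh4 and Myh1 at 0 or 1 UMI in every section, and 0 of 4 tested bile duct markers were called at any time. Of 4 platelet markers 2 rose at 24 h and 1 at 48 h, of 7 endothelial markers 1 rose and 3 fell at 24 h and 2 fell at 48 h, and of 5 macrophage markers 1 rose and 1 fell at 24 h and 2 rose at 48 h. Of 6 hepatocyte markers 4 fell and 1 rose at 24 h and at 48 h. The part of these cells in the contractile values was not tested.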

How the data were processed

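Spatial 3' gene expression was measured on 11 snap-frozen mouse liver sections. The authors aligned the reads to mm10 (Ensembl 93) with Space Ranger 1.0.0 and deposited raw UMI counts per gene and spot, with no normalisation; Seurat 4.1.1 is also named in the submitters' notes. Spots with under 800 genes or over 20% mitochondrial UMIs were excluded as in the study, while its manual removal of isolated spots was not repeated. Counts were summed per section (31292663 to 67045372 UMIs), or per section and spot class, and tested with edgeR 4.0.16 (R 4.3.3; quasi-likelihood, TMM, low-count filter, Benjamini-Hochberg over all genes, threshold 0.05), with section as a block for spot classes. Spots were thinned to 2000 UMIs for scores and to 5000 for shares. Ratios were compared by exact permutation (scipy 1.17.1). Counting intervals cover counting error only. DESeq2 1.42.0, total-count scaling, no low-count filter, other spot sets and leaving out each section were the alternatives. No pair of sections agreed within sampling noise. Scripts were tested on simulated data. The named genes were the members, 11 collagens, the 4 called genes of contraction and its regulation with the largest change at 48 h, and the 5 genes most like Acta2 and Myh11. Members and lists were chosen with earlier results of these data known.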

Additional observations from a re-analysis of the deposited data

Results flagged for a closer look

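At 48 h, Cnn1 and Actg2 in section A stood far from the other 3 sections: the gap to the nearest section was 0.947 of the whole range for Cnn1 and 0.958 for Actg2, above Dixon's 95% critical value for 4 samples. All 9 members were tested in this way, and chance gives such a gap in about 1 in 20 groups. The UMIs lay mostly in the patch of spots at the tissue edge described above.

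The portal-poor minus portal-rich difference changed between 0 h and 48 h, by the test of that change in edgeR, for 8 members. The change on the log2 scale was 4.04 for Acta2, 2.50 for Tagln, 1.59 for Myl9, 1.21 for Tpm1, 0.97 for Tpm2, 1.33 for Cnn2, 3.71 for Actg2 and 1.47 for Myh11. Leaving out each section gave 6 to 8 members. Actg2 had only 25 UMIs over the 0 h sections. The patch held 58.3% of the Actg2 UMIs and 42.7% of the Myh11 UMIs of 48 h A.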

How the results depend on the processing

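Counts of called members at 24 h, 36 h and 48 h against 0 h stayed within 1.5 times under total-count scaling, DESeq2, no low-count filter, all spots, interior spots, and without biliary spots or the patch (the last chosen after seeing the data). Exceptions in other counts were 6 collagens at 24 h with only the 2 time points, 1 member for 48 h against 36 h in DESeq2, and the biliary counts: 3 and 0 members at 0 h, and 2 and 0 at 48 h, with at least 1 and at least 3 UMIs, and 0 at 48 h under total-count scaling.

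Leaving out each section gave 4 to 7 members at 24 h, 4 to 7 at 36 h and 7 to 9 at 48 h against 0 h, 0 to 3 for 36 h against 24 h and 0 to 4 for 48 h against 36 h. It gave 2 to 4 collagens at 24 h and 3 to 10 at 36 h. Biliary counts ran from 0 to 7 at 0 h and 0 to 2 at 48 h, and portal-poor counts from 1 to 2 at 0 h and 1 to 6 at 24 h. The Acta2 to Col1a1 difference of injured minus 0 h ran from -0.37 to 0.37 around 0.07 and turned negative without 0 h section 2 (-0.25) and without 24 h A or B (-0.37 each). Cnn2 at 36 h against 0 h ran from -0.065 (without 36 h B) to 0.85. Cnn1 at 48 h was not called without a low-count filter (edgeR adjusted p = 0.057), with only 2 time points (0.062) or without any 1 of the 0 h sections (0.070 to 0.086). The causes were not tested.

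With the section letter as a replicate block among injured sections, 0 members were called in all 3 contrasts and 7 collagens rose from 24 h to 48 h. Over all genes the block left 82, 0 and 805 calls of 984, 7 and 3838 from 24 h to 36 h, from 36 h to 48 h and from 24 h to 48 h. The A minus B differences correlated at 0.29, -0.17 and -0.09 between times (24 h with 36 h, 24 h with 48 h, 36 h with 48 h), so they were of mixed sign and the letters were not taken to pair the sections. Few UMIs limit Cnn1 and Actg2: before 48 h neither passed the test over all sections, although Actg2 at 24 h did without 48 h A, without its patch, with only 2 time points and in DESeq2.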
